A study of Mus musculus with 6 samples.

Results

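The 7 transcripts described here, Malat1, Neat1, Miat, Meg3, Rian, Mirg and Snhg11, are long non-coding RNAs. Their probe sets were all those that the platform annotation assigns to one of these symbols alone: 30 of the 34945 probe sets with 1 symbol, for 7 of 18194 genes. They were read on 6 arrays of ribosome-purified RNA from mouse cortex. The mice carried the S100a10 bacTRAP transgene (line ES691), in which an S100a10 control region drives a tagged ribosomal protein, so that ribosomes of cells using that region can be pulled out with their RNA. They had been crossed from FVB to C57BL/6 for 3 to 5 generations. Of the 6 arrays, 3 came from mice that drank fluoxetine, a serotonin reuptake inhibitor, at 0.167 mg/ml in 1% saccharine, and 3 from mice that drank 1% saccharine alone (vehicle), for 15 to 18 days. Arrays are named below by treatment and replicate number. All mice of both groups carried the transgene, the labels state no age, and the submitters state that the line also marks some non-neuronal cells.

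Malat1 and Neat1 are transcribed from neighbouring genes on chromosome 19. Malat1 RNA gathers in nuclear speckles, which store splicing factors, and Neat1 RNA is the scaffold of paraspeckles. Miat, also called Gomafu, is a neuronal nuclear RNA known to bind splicing factors. Meg3, Rian and Mirg lie one after another in the imprinted Dlk1-Dio3 region of chromosome 12 and are expressed from the maternal chromosome; Rian is a host of small nucleolar RNAs and Mirg of many microRNAs. Snhg11 is a small nucleolar RNA host gene. None of the 7 is known mainly as a messenger RNA.

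The promoters of Meg3, Malat1 and Snhg11 are shown because the brightest probe sets of these 3 genes were lowest on the same 2 arrays, as described below. They are RefSeq sequences (GRCm38.p6), 250 bases before to 50 after the annotated start, 5′ to 3′ on the gene's strand. Capitals mark matches on either strand to TGACGTCA (the cyclic AMP response element), to its first 5 letters (TGACG), to the TATA box (TATAAA), to the CCAAT box (CCAAT) or to the GC box (GGGCGG).
Meg3, chr12:109540746-109541045, plus strand: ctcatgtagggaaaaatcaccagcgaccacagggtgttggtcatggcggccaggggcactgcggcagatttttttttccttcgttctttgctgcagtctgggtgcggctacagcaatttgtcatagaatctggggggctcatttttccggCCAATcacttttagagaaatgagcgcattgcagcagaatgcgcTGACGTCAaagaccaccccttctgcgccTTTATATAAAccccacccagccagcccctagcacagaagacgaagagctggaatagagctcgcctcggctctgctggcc
Malat1, chr19:5802623-5802922, minus strand: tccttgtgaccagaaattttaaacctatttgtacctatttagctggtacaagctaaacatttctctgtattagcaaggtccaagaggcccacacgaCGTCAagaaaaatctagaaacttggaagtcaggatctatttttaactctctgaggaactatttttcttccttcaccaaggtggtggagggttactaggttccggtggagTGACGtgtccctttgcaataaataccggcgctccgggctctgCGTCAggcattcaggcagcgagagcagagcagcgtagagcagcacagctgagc
Snhg11, chr2:158375463-158375762, plus strand: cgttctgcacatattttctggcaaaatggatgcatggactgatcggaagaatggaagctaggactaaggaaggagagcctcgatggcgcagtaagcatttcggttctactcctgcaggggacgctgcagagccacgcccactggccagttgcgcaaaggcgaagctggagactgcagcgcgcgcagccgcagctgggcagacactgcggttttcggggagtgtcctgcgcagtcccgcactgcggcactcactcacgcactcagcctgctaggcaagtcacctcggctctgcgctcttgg
The Meg3 window held a full TGACGTCA beginning 57 bases before the start, which overlaps 2 matches to TGACG, together with CCAAT and 2 overlapping TATAAA matches. Malat1 held 3 matches to TGACG and no match to the other 4 motifs, and Snhg11 held none of the 5. Of 32851 mouse promoter windows of the same length, 1.79% held TGACGTCA, 20.8% TGACG, 13.6% TATAAA, 37.4% CCAAT and 35.7% GGGCGG. These are letter matches, not measured sites. Promoter sequences matched 6 of the 7 genes.

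The clearest feature of the data was a large difference between replicate arrays in Meg3 and in part of the Malat1 probe sets that did not follow the treatment. All 7 tested Meg3 probe sets and 2 of the 4 for Malat1 had fluoxetine 1 and vehicle 3 as their 2 lowest arrays. No probe set of any member passed the test between fluoxetine and vehicle. Miat was the one tested member whose groups did not overlap, and it was lower with fluoxetine.

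A level is given as log2 intensity after the authors' normalization. Of the 30 probe sets, 16 had a geometric mean of at least 50 (5.64 in log2) over the 6 arrays and were tested, 14 did not and are given by value only. Among the 16 were 4 of 7 for Malat1, 7 of 11 for Meg3, 2 of 2 for Neat1, 1 of 2 for Miat, 1 of 4 for Rian, 1 of 2 for Snhg11 and 0 of 2 for Mirg. A level cannot be compared between probe sets, since each binds with its own strength.

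Malat1's brightest probe set, 1418189_s_at, measured 6.85, 8.91 and 9.25 on fluoxetine 1 to 3 and 9.85, 8.85 and 6.99 on vehicle 1 to 3. Its lowest and highest arrays, fluoxetine 1 and vehicle 1, were 8.0-fold apart. Each group thus held 1 low and 2 high arrays, and the groups overlapped. The difference was −0.23 ± 0.85 (fluoxetine minus vehicle in log2, SE, n = 3 each; limma adjusted p = 0.999). It was 0.51 without fluoxetine 1 and 0.41 without vehicle 1, the opposite direction, and −1.02 without vehicle 3.

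The probe set 1418188_a_at of Malat1, read 5.24, 6.65 and 6.97 with fluoxetine and 8.05, 6.98 and 5.59 with vehicle. The same 2 arrays were lowest and vehicle 1 was again highest, 7.04-fold above the lowest. The difference was −0.59 ± 0.67 (log2, SE; limma adjusted p = 0.999), −0.07 without fluoxetine 1 and −0.0016 without vehicle 1. It was −0.93 without fluoxetine 3 and −1.23 without vehicle 3. The other tested probe sets of Malat1 varied less. Probe set 1429060_at read 6.80, 6.73 and 7.47 against 7.35, 7.36 and 6.91, a range of 1.68-fold, with fluoxetine 2 the lowest array. Probe set 1438403_s_at read 5.96, 6.01 and 6.51 against 5.78, 6.68 and 5.89, and vehicle 1, the highest array for the first pair, was its lowest. The 3 Malat1 probe sets under the level of 50 lay between 3.03 and 5.14 on all arrays.

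Meg3's brightest probe set, 1452906_at, read 7.04, 7.84 and 8.18 with fluoxetine and 8.21, 8.06 and 6.84 with vehicle. Vehicle 3 and fluoxetine 1 were the 2 lowest arrays and the other 4 ran from 7.84 to 8.21. The difference was −0.02 ± 0.42 (log2, SE; limma adjusted p = 0.999), and 0.048 after quantile normalization. It was 0.31, 0.24 and 0.16 without fluoxetine 1, vehicle 1 and vehicle 2, and −0.45 without vehicle 3.

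Meg3's probe set 1452905_at had the widest range of its 7, at 3.86-fold. It read 5.50, 6.80 and 7.38 against 7.45, 7.04 and 6.26. Fluoxetine 1 and vehicle 3 were again lowest, in all 7 of the tested Meg3 probe sets, which share a transcript and are not independent. Over all 22326 tested probe sets, the share with these 2 arrays lowest was 11.6%. The 7 differences between groups ran from −0.36 to 0.10, with standard errors of 0.28 to 0.50. Of the 4 dim Meg3 probe sets, 1436713_s_at was highest on fluoxetine 3, at 5.36, with the remaining 5 arrays at 4.07 to 4.23.

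**Figure D1:**
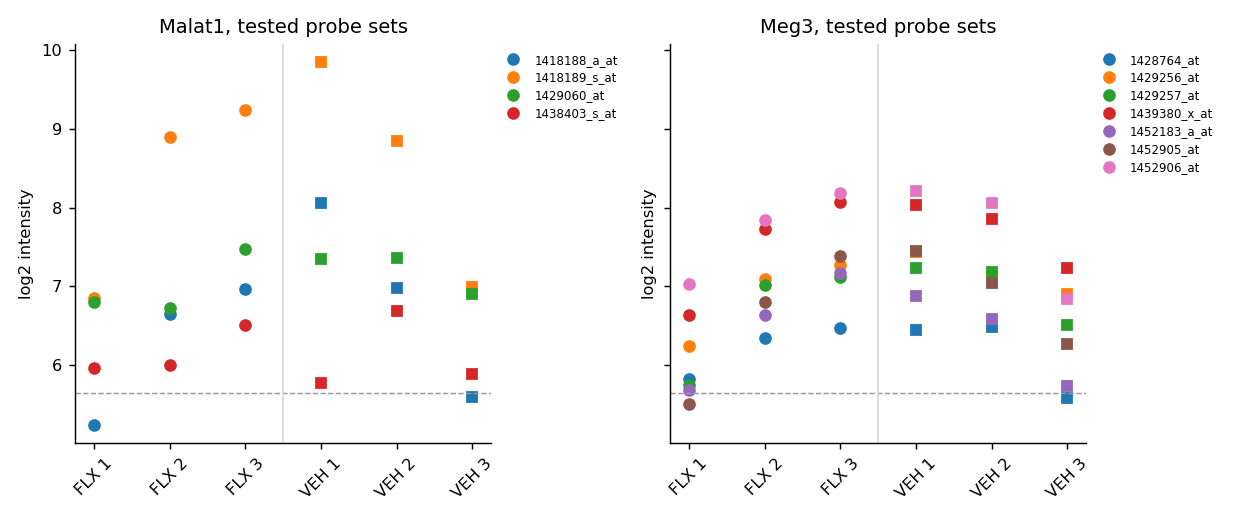
Log2 intensity (y axis) of the 4 tested Malat1 and 7 tested Meg3 probe sets on each array (x axis; FLX, fluoxetine, circles; VEH, vehicle, squares; colours, probe sets; dashed line, the level of 50). In all 7 Meg3 probe sets and in 1418188_a_at and 1418189_s_at of Malat1, FLX 1 and VEH 3 are the 2 lowest arrays.

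Spread between replicates was accordingly wide. Within groups, the SD of 1418189_s_at was 1.37 in log2, the 29th largest of 22326 tested probe sets, and that of 1418188_a_at was 1.09, the 76th largest. The median over all tested probe sets was 0.193. The 7 Meg3 probe sets had SDs of 0.431 to 0.803, against a 95th percentile of 0.505 for all tested probe sets. Miat (0.094), Neat1 (0.109 and 0.226) and Rian (0.160) lay near or below the overall median. Neat1, next to Malat1, and Rian, downstream of Meg3, did not have fluoxetine 1 and vehicle 3 as their 2 lowest arrays in any tested probe set. Only 2 probe sets were tested for Neat1 and 1 for Rian. Malat1 itself had that pair lowest in only 2 of its 4, so these few probe sets cannot show that a gene lacks the pattern.

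**Figure D2:**
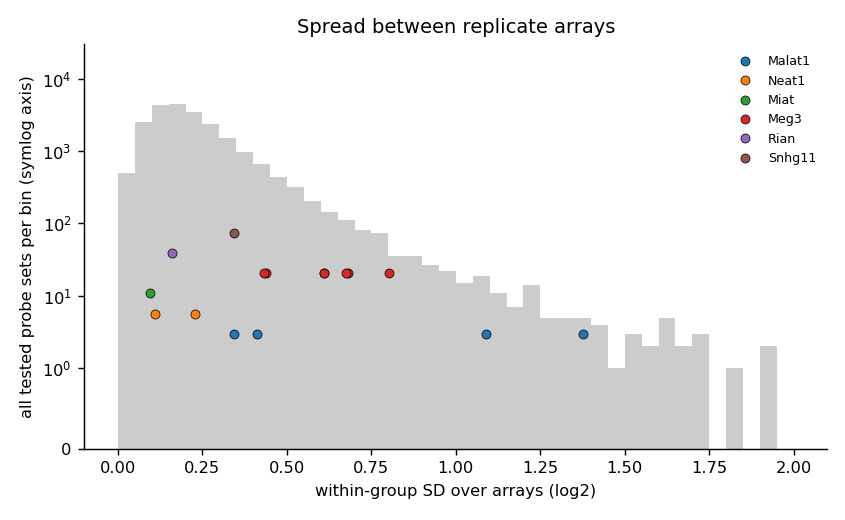
Within-group SD over arrays in log2 (x axis) of the 16 tested member probe sets (points, coloured by gene, height arbitrary) over the distribution for all 22326 tested probe sets (grey bars, number per bin, symlog axis). The 2 Malat1 points at 1.09 and 1.37 and the Meg3 points from 0.431 to 0.803 lie right of the median of 0.193.

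The same 2 arrays were also lowest in single probe sets of protein-coding genes. Those named here were picked for their likeness to a member, so a shared lowest pair follows largely from that choice. Over all tested probe sets the share with this pair lowest was 11.6%. The 3 genes with the pattern most like Malat1's 1418189_s_at, by root mean square difference of centred log2 values over 6 arrays, were Hif1a (0.289), a subunit of the hypoxia-induced transcription factor, Plekha5 (0.327) and Baz1b (0.335), a chromatin remodelling factor. Malat1's own root mean square deviation was 1.13. Hif1a's 1448183_a_at read 5.23, 7.21 and 7.94 with fluoxetine and 8.41, 7.80 and 6.11 with vehicle, a 9.08-fold range. The 2 other tested Hif1a probe sets had the same 2 arrays lowest but ranged 1.62-fold (1416035_at) and 1.37-fold (1427418_a_at). For Plekha5 the closest probe set ranged 6.08-fold and 1425543_s_at 1.39-fold, and for Baz1b they were 5.33-fold and, in 1434824_at, 1.56-fold. Within these 3 genes, as within Malat1, probe sets of one gene therefore disagreed on how far the arrays lay apart. In the 3 coding genes the wide range came from the dimmest tested probe set. On fluoxetine 1 and vehicle 3, Plekha5's read 5.49 and 5.29 and Baz1b's 4.37 and 4.77, under the filter level (5.64 in log2). Hif1a's was under that level on fluoxetine 1 alone. Their other tested probe sets read 8.85 to 12.39. Malat1's 1418188_a_at was under it on these 2 arrays, but 1418189_s_at was not, at 6.85 and 6.99. The part of such dim values in the ranges was not tested.

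For Meg3's 1452906_at the closest were Arhgap5 (0.082), a GTPase-activating protein, Tmed5 (0.095), a trafficking protein of the early secretory pathway, and Pgm2l1 (0.096), against 0.551 for Meg3 itself. In all 3 genes the other tested probe sets had the 2 arrays lowest too, with a range of 2.07-fold for 1424573_at of Tmed5, 4.23-fold and 2.33-fold for 1423194_at and 1450897_at of Arhgap5 and 4.58-fold and 2.06-fold for 1438774_s_at and 1452841_at of Pgm2l1. All 6 of these closest genes code for proteins, as do those named below for Miat, Neat1, Snhg11 and Rian. The share of protein-coding genes among all tested genes was not counted.

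Array-wide measures of these 2 arrays were mixed. The 3′ minus 5′ control signal of Actb, a measure of how far RNA or its copies are shortened, was 3.02 on fluoxetine 1 and 3.07 on vehicle 3 in log2, against 3.00 to 3.38 on the other 4. For Gapdh it was 2.35 and 2.53, against 2.39 to 2.67. The control probe set for B1 repeats read 11.21 on fluoxetine 1, the lowest, but 12.04 on vehicle 3, against 11.62 to 12.15. Summed intensity of the 12 astrocyte markers, all of which were above the filter, was 54317 on fluoxetine 1 and 49055 on vehicle 3, the 2 highest, against 41940 to 47134 on the others (fluoxetine 42705 to 54317, vehicle 41940 to 49055), and 9 of the 12 were highest on fluoxetine 1 and 1 on vehicle 3. A few bright genes carry that sum: marker by marker, the median deviation from a marker's mean was 0.45 on fluoxetine 1 but −0.05 on vehicle 3, below the 0.11 of fluoxetine 3. The 9 projection neuron markers summed to 54592 and 61243, the 2 lowest, against 61388 to 68713 (fluoxetine 54592 to 68713, vehicle 61243 to 64469). All 9 of the latter with a probe set of their own were above the filter, and the brightest, Pcp4, carries most of their sum. Marker by marker, their median deviation was −0.15 on fluoxetine 1 and 0.02 on vehicle 3, and 5 of the 9 were lowest on fluoxetine 1 and 0 on vehicle 3. The 8 pericyte markers set the 2 arrays apart, with a sum of 6951 on fluoxetine 1, the lowest, and 13543 on vehicle 3, the highest. Of the 5 above the filter, 4 were lowest on fluoxetine 1 and 5 highest on vehicle 3. The part of these measures in the Malat1 and Meg3 values was not tested, and in such samples fewer cells of a type and less RNA per cell cannot be told apart.

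The comparison of fluoxetine with vehicle asks whether prolonged treatment changes these RNAs in ribosome-purified material. Miat was lower on every fluoxetine array. Its probe set 1455325_at read 7.19, 7.17 and 7.17 with fluoxetine and 7.39, 7.64 and 7.44 with vehicle. The groups did not overlap and vehicle 2 was highest. Its mean log2 level over 3 fluoxetine arrays was 7.18 ± 0.01 (SD), and over 3 vehicle arrays 7.49 ± 0.13. Fluoxetine minus vehicle was −0.31 ± 0.11 (SE), a fold of 0.805. It had an unadjusted p of 0.028 by limma's moderated test and did not pass after adjustment (adjusted p = 0.999). Leaving out 1 array at a time gave −0.36 to −0.24, and quantile normalization −0.28.

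Miat was 1 of 16 tested member probe sets without overlap, where 8.05% of all tested probe sets were (5.23% lower with fluoxetine), and 1 of 16 with an unadjusted p under 0.05, where 2.52% of all were (563 of 22326; 1.78% lower and 0.739% higher). None of the 22326 passed limma's test at an adjusted p of 0.05 (0%), so none of the members did. The other Miat probe set, 1458903_at, lay at 2.78 to 2.96 and went the other way (0.09). The genes with the pattern most like Miat's were Nr4a2 (0.029), an orphan nuclear receptor induced by activity, Mettl7a1 (0.029) and Plxnc1 (0.030), a semaphorin receptor, against 0.174 for Miat itself. Nr4a2's 1455034_at read 11.21, 11.11 and 11.10 against 11.38, 11.61 and 11.41. The 3 other tested Nr4a2 probe sets overlapped between groups: 1447863_s_at read 10.57, 10.35 and 11.05 against 10.83, 11.24 and 10.64, and 1450749_a_at and 1450750_a_at ranged 1.17-fold and 1.35-fold over the 6 arrays. Another 2 probe sets of Plxnc1, 1423214_at (under the filter) and 1450906_at, instead had fluoxetine 1 and vehicle 3 lowest, over 4.96-fold and 4.27-fold ranges.

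Neat1's brighter probe set, 1428083_at, read 7.41, 7.88 and 7.37 with fluoxetine and 7.60, 7.91 and 7.74 with vehicle. Fluoxetine 1 and 3 were lowest, but fluoxetine 2 lay among the vehicle arrays. The difference was −0.19 ± 0.17 (log2, SE; limma adjusted p = 0.999), from −0.36 without fluoxetine 2 to −0.12, −0.12 and −0.10 without fluoxetine 1, vehicle 2 and fluoxetine 3. The dimmer 1442881_at, just above the filter, read 5.71 to 5.85 against 5.75 to 6.00 (−0.06 ± 0.12), and its sign turned with a shift to a common median (0.0052) and without vehicle 3 (0.022). The genes closest to Neat1's pattern were Mosmo (0.036), a regulator of Smoothened, Ppm1a (0.043), a protein phosphatase, and Sorbs3 (0.047), an adaptor of cell adhesions, against 0.209 for Neat1.

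Snhg11's 1434292_at read 7.46, 8.02 and 7.63 with fluoxetine and 8.35, 8.15 and 7.60 with vehicle. Fluoxetine 1 and vehicle 3 were its lowest arrays too, over a 1.85-fold range, with fluoxetine 3 close by. The difference was −0.33 ± 0.23 (log2, SE; limma adjusted p = 0.999), from −0.55 without vehicle 3 to −0.17 without vehicle 1. Its other probe set, 1437311_at, was dim, at 4.98 to 5.39. Sowaha (0.046), Zfp148 (0.080), a zinc finger transcription factor, and Smco3 (0.085) were closest to it, against 0.325 for Snhg11.

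Of the other 2 transcripts of the imprinted region, Rian had 1 tested probe set and Mirg none. Rian's 1452899_at read 7.18, 7.14 and 7.16 with fluoxetine and 6.80, 7.22 and 7.15 with vehicle. Vehicle 1, where Meg3 was high, was its one low array. The difference was 0.11 ± 0.14 (log2, SE; limma adjusted p = 0.999), and −0.023 without vehicle 1. Its 3 other probe sets lay between 2.51 and 4.53. The genes closest to Rian's pattern were Sephs1 (0.027), of selenium metabolism, BC003965 (0.037) and Zfp438 (0.040), against 0.141 for Rian.

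Mirg's probe sets lay between 2.22 and 2.98 on all arrays, far under the filter, so no difference was tested. To show what Mirg and its neighbours carry, 4 of the mature microRNAs that RefSeq (GRCm38.p6) places on the plus strand within the 3 genes are given, with the seed (bases 2 to 8) in capitals. The first pair has 1 seed in common and is the only such pair among the 28 listed there (19 within Mirg, 6 within Rian and 3 within Meg3).
mmu-miR-453, within Mirg: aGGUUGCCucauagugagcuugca
mmu-miR-496a-5p, within Mirg: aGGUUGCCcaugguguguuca
mmu-miR-370-3p, within Rian: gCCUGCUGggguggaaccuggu
mmu-miR-770-5p, within Meg3: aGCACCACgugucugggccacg
The microRNAs themselves were not measured. Of 4 listed protein-coding genes of the region, only Dlk1 had a probe set annotated to it alone, and it was under the filter (4.83 to 5.06 with fluoxetine, 4.53 to 5.06 with vehicle).

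**Figure D3:**
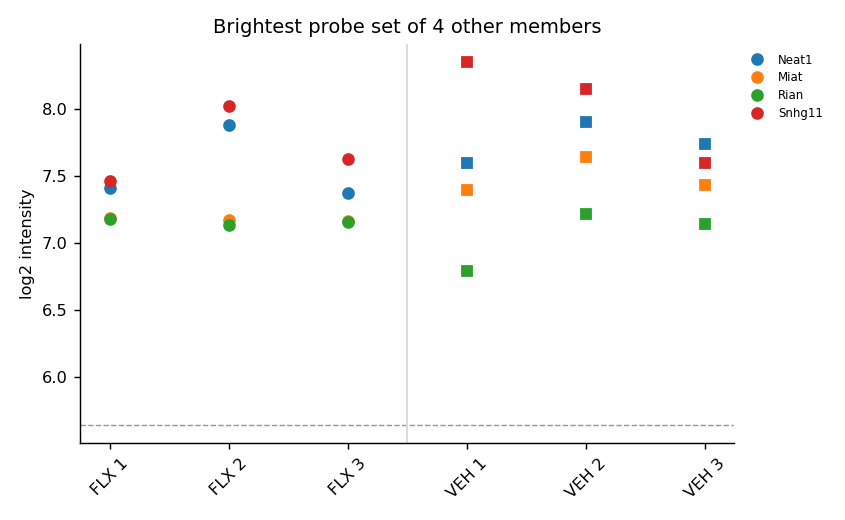
Log2 intensity (y axis) of the brightest probe set of Neat1, Miat, Rian and Snhg11 on each array (x axis; FLX, fluoxetine, circles; VEH, vehicle, squares; dashed line, the level of 50). Miat is lower on all 3 FLX arrays (7.17 to 7.19) than on the VEH arrays (7.39 to 7.64), while the groups of the other 3 overlap.

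Counted over the tested member probe sets, 12 of 16 (75%) were lower with fluoxetine, where 66.3% of all tested probe sets were. The median difference was −0.22 in log2, beside −0.06 for all tested. The 16 are not independent, since probe sets of one gene read the same transcript: 5 of the 7 for Meg3 and 3 of the 4 for Malat1 were lower. After quantile normalization 11 of the 16 members and 50.2% of all tested probe sets were lower, and after a shift to a common median 10 of 16 and 49.2%. Without fluoxetine 1 only 6 of the 16 were lower and the median was 0.09. Over all 30 probe sets, filter aside, 18 were lower and the median was −0.05, beside 46.7% lower and a median of 0.01 for the 45037 probe sets of the table. Of the 14 dim member probe sets, 8 were higher with fluoxetine, as were 72.6% of all probe sets under the filter, and 4 of the 14 did not overlap between groups, which makes 5 of all 30 beside 22.8% of the whole table.

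**Figure D4:**
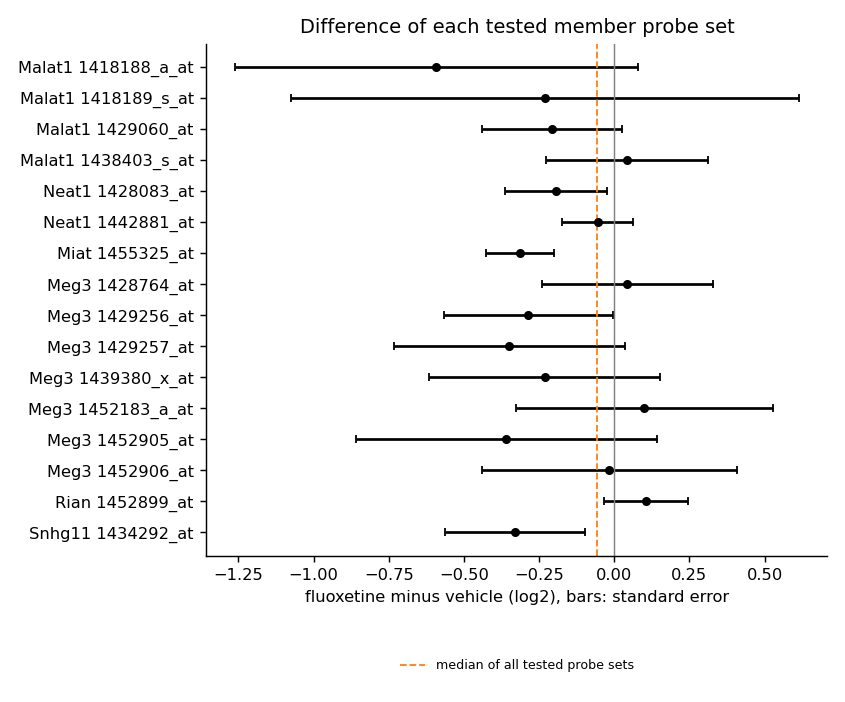
Difference between fluoxetine and vehicle in log2 (x axis; bars, standard error) for the 16 tested member probe sets (y axis), with the median of all tested probe sets dashed at −0.06. Miat's bar is the one farthest from 0 in units of its standard error, and the Malat1 bars of 1418188_a_at and 1418189_s_at are the widest.

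Of 49 other long non-coding transcripts listed, 34 had a probe set of their own and 21 were tested: 17 were lower with fluoxetine and 4 higher, with a median of −0.15, and 0 passed limma's test. Of all tested probe sets, 66.3% were lower (50.2% after quantile normalization). None of the 21 had an unadjusted p under 0.05 by limma or groups without overlap. Over all tested probe sets these shares were 2.52% and 8.05%. Of the 21, those with the smallest unadjusted p were Dleu2 (−0.45 ± 0.21, log2, SE), Snhg6 (−0.28 ± 0.14), Snhg12 (−0.44 ± 0.23) and Dlx6os1 (−0.60 ± 0.34). Fluoxetine 1 was the lowest array for 10 of the 21, where it was for 18.5% of all tested probe sets. Fluoxetine 1 and vehicle 3 were the lowest pair for 4 of the 21, where they were for 11.6% of all tested probe sets. Among the 4 was A330008L17Rik (7.39, 8.02 and 7.84 against 7.58, 7.68 and 6.86).

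A list of genes for nuclear proteins, among them components of speckles and paraspeckles, had 18 of 24 tested members lower. Their median was −0.10, and 0 passed. Of all tested probe sets, 66.3% were lower (50.2% after quantile normalization). Son, a speckle scaffold, read 10.34, 10.34 and 10.45 against 10.47, 10.85 and 10.73 (−0.31 ± 0.13, SE). Sfpq, a core paraspeckle protein, differed by −0.32 ± 0.15 and Hnrnph3 by −0.22 ± 0.11, and for these 3 of the 24 the groups did not overlap, where 8.05% of all tested probe sets did not (5.23% lower). The splicing factor gene Sf1 differed by 0.71 ± 0.42, with vehicle 2 at 12.62 and the other arrays at 14.11 to 14.67.

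Nonsense-mediated decay, which degrades RNAs whose translation stops early, is known to act on several small nucleolar RNA host transcripts. Of its 7 tested factors 4 were lower and 3 higher (median −0.03), and 0 passed. Upf2 differed by −0.20 ± 0.24, Smg8 by −0.08 ± 0.12, Smg9 by 0.05 ± 0.11 and Smg1 by −0.06 ± 0.27 (log2, SE). Fluoxetine 1 and vehicle 3 were the lowest pair for 2 of the 7, Upf2 and Smg1, where they were for 11.6% of all tested probe sets. Immediate early genes, to which Nr4a2 belongs, had 25 of 28 members lower (median −0.38), and 0 passed. Of the 28, 10 had an unadjusted p under 0.05 by limma. Of all tested probe sets, 66.3% were lower and 2.52% had an unadjusted p under 0.05 (1.78% lower). The 4 immediate early genes with the smallest p were Egr4 (−0.54 ± 0.16), Homer1 (−0.52 ± 0.16), Dusp5 (−0.44 ± 0.14) and Nr4a2 (−0.33 ± 0.12).

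S100a10, whose control region marks the cells, read 14.98 to 15.22 on all arrays. Median intensity was 47.3 to 48.6 per array and the correlation between any 2 arrays, over probe sets in log2, was 0.993 to 0.997. Other cell types were measurable: 9 of 11 interneuron markers with a probe set of their own (median difference −0.14), 8 of 10 for oligodendrocytes (−0.13), 5 of 10 for microglia (0.18), 6 of 9 for endothelium (−0.08) and 5 of 8 for pericytes (−0.41) were above the filter, with medians of 0.24 for astrocytes and −0.04 for projection neurons.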

How the data were processed

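Intensity values on a linear scale, 1 column per array, were deposited after the authors' normalization with GCRMA, per the submitters' processing notes (no version stated). GCRMA models background from probe sequence and draws dim values towards a floor. The deposited arrays' distributions were not equal: the upper quartile of intensity ran from 498 on fluoxetine 2 to 574 on vehicle 2. Per the labels' protocols, 15 ng of RNA went through a two-cycle amplification, and the samples are biological replicates; pooling of animals is not stated, and p-values measure only the spread between these samples. The submitters describe averaged replicates, but the table has each array, and their recommended probe set list was not used here. The number of arrays limits the precision.

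Values were taken to log2. Of 45101 probe sets, 64 array controls were left out; 932 had several symbols and 9160 none, and none of those was named. The 22326 with a geometric mean of at least 50 were tested with limma 3.58.1 (R 4.3.3; functions lmFit, eBayes; fluoxetine minus vehicle, two-sided, no block, Benjamini-Hochberg over all, threshold 0.05). Scripts were tested on simulated data. Within-group SD pools both groups. Each listed gene was represented by its brightest tested probe set. Named were all members, up to 4 genes per pathway list by smallest unadjusted p, and the 3 genes most like each member. A330008L17Rik, Plxnc1's further probe sets, the control probe set for B1 repeats and the pericyte sums were chosen after their values were seen. The members and lists were chosen with earlier results of these data known. Alternatives covered the filter, an offset, normalization, the replicate block, variance estimates, array weights, probe set kinds and arrays left out.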

Additional observations from a re-analysis of the deposited data

How the results depend on the processing

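No probe set passed under any of the 20 alternatives, and the smallest adjusted p of a member was 0.742. Of the 20, 9 cannot change a difference; under the other 11, 152 of 176 single differences kept their direction and 24 turned; 5 of the 16 probe sets never turned, Miat among them. Meg3's 1452906_at turned to 0.048 after quantile normalization, 0.044 with a common median and 0.032 with array weights, Neat1's 1442881_at to 0.0052 with a common median, and Meg3's 1428764_at to −0.055 without fluoxetine 1 and vehicle 3, an alternative added after seeing the data, under which 13 of 16 members were lower. Leaving out 1 array gave 6 to 15 members lower (6 without fluoxetine 1), median differences of −0.38 to 0.09 and 0 calls. The ranges were −1.23 to −0.0016 (1418188_a_at), −1.02 to 0.51 (1418189_s_at) and −0.14 to 0.32 (1438403_s_at) for Malat1; −0.25 to 0.24 (1428764_at), −0.49 to 0.027 (1429256_at), −0.59 to 0.090 (1429257_at), −0.53 to 0.19 (1439380_x_at), −0.24 to 0.51 (1452183_a_at), −0.77 to 0.17 (1452905_at) and −0.45 to 0.31 (1452906_at) for Meg3; −0.10 to 0.022 for Neat1's 1442881_at and −0.023 to 0.19 for Rian. The cause was not tested. With the replicate number as a block, 0 probe sets passed and 350 instead of 563 had an unadjusted p under 0.05 by limma. The median (−0.22) and the count of 12 lower cannot change with the block, since each number has 1 array per group. Deviations of arrays with the same number correlated at −0.25, −0.03 and −0.50, and no array correlated best with its own number (fluoxetine 1 did with vehicle 3, at 0.43), so the numbers were not taken to pair the samples.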
